A study of Mus musculus with 6 samples.

Results

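The cadherin and protocadherin genes were defined as the genes of the GENCODE M1 annotation whose symbols begin with Pcdh, Cdh and a digit, Celsr or Dchs, or are Fat1 to Fat4. The rule found 69 of 37273 annotated genes on the chromosomes of the peak list. They comprise 67 protein-coding genes and 2 pseudogenes, under 68 symbols, because 1 pseudogene is also named Pcdh15. Dppa2 binding was read from a ChIP-seq peak list. The cells were feeder-free mouse ESCs of the line CGR8, stably transfected with a CAG-driven vector for Dppa2 that is V5-tagged at its N-terminus and selected as clones with puromycin. The parental CGR8 line without a V5 tag was the control for the anti-V5 ChIP and entered only through the peak calling done by the authors. The control library and the 4 modified ChIP libraries against H3K4me1, H3K4me3, H3K27ac and H3K9me3 were not analysed here. The list comes from 1 library, so the values have no replicate error and were not tested. The tagged protein was expressed in addition to any endogenous Dppa2. A peak list carries no expression values, so the ESC identity of the cells could not be checked against marker genes.

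A gene was called Dppa2-bound when the midpoint of a peak lay within 1000 bp of the TSS of any of its transcripts. The list holds 3336 peaks and was taken to hold only peaks at TSSs, so that binding in introns or between genes was not assessed. Each peak carries a score, −log10 of its p-value from MACS against the control, multiplied by 10. Scores ran from 100.01 to 3100 with a median of 228, and peaks were 360 to 9203 bp wide with a median of 1433 bp. The depth of the libraries is unknown, and a gene without a peak was not detected as bound at the threshold of the list.

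Cadherins are calcium-dependent adhesion proteins whose extracellular repeats bind the same or a related protein on the neighbouring cell. The classical cadherins hold adherens junctions together through catenins, and E-cadherin, the product of Cdh1, holds ESC colonies together. The clustered protocadherins lie in alpha, beta and gamma groups on chromosome 18. There, each alpha and most gamma variable exons have a promoter of their own and are spliced to constant exons shared by the group, while each beta gene is a single exon. Cdh23 and Pcdh15 proteins form the tip links of the sensory hair cells of the inner ear, and the large Celsr, Fat and Dachsous cadherins act in planar cell polarity.

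Dppa2 peaks were found at Cdh1, Cdh4, Cdh15, Cdh23 and Pcdh15 and at 2 TSSs of the alpha protocadherins. Of the 69 genes, 8 were bound (11.6%, 95% interval 5.14 to 21.6), through 7 peaks, because the Pcdh15 pseudogene lies inside Pcdh15 and shares its peak. Over all annotated genes the bound share was 10.2%, which lies within that interval. Among protein-coding genes, 7 of 67 members were bound (10.4%, 4.30 to 20.3), against 14.2% of 22367 genes. The intervals are exact Clopper-Pearson intervals and cover counting error only. At a score of at least 200, a p-value of 1e-20, 4 of the 69 genes remained, through 3 peaks, against 5.97% of all genes. The bound share of the family was thus near that of the genome. The text below describes which of its genes and which of their TSSs carried the peaks.

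The sequence upstream of the TSS is shown for Cdh1, Cdh15, Cdh4, Pcdh15 and Cdh23, beside 3 unbound TSSs chosen for contrast. These 3 are the most CpG-rich TSS of Cdh23, the unbound member with the highest CpG ratio at its TSS (Dchs1) and the one with the lowest (Cdh17). Each sequence is the 200 bp before the first TSS, or before the stated TSS of Cdh23, read from mm9 on the strand of the gene. Capitals mark CpG dinucleotides. The windows are chr8:109127051-109127250 on the plus strand for Cdh1, chr8:125371666-125371865 on the plus strand for Cdh15, chr2:179176936-179177135 on the plus strand for Cdh4 and chr10:72561890-72562089 on the plus strand for Pcdh15. They are chr10:60159239-60159438 on the minus strand for bound Cdh23, chr10:60150006-60150205 on the minus strand for its CpG-rich TSS, chr7:112936169-112936368 on the minus strand for Dchs1 and chr4:11685094-11685293 on the plus strand for Cdh17. All 5 bound windows lie inside a peak.
Cdh1, bound: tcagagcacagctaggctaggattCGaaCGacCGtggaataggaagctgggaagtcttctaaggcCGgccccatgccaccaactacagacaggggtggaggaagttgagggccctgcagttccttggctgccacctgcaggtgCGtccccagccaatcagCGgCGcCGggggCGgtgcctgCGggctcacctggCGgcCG
Cdh15, bound: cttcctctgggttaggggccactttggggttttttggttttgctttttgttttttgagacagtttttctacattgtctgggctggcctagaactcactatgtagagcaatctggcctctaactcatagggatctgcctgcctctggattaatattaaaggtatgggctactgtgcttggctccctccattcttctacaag
Cdh4, bound: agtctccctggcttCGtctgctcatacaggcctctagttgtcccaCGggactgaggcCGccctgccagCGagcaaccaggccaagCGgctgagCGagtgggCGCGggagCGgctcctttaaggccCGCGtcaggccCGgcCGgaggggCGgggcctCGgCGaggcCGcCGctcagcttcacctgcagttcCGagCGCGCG
Pcdh15, bound: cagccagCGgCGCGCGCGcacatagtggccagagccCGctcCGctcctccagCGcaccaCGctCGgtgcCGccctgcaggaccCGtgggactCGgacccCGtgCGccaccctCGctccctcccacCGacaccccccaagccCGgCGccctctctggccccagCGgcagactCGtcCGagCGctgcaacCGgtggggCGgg
Cdh23, bound: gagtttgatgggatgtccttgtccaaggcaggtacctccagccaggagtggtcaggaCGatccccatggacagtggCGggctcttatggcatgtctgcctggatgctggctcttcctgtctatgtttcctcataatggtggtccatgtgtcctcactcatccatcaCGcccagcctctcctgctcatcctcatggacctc
Cdh23, CpG-rich TSS without a peak: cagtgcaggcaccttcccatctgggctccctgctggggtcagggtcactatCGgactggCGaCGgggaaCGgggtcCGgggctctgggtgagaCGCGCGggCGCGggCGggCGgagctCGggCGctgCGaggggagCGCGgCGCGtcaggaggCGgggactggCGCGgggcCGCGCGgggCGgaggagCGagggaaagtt
Dchs1, not bound: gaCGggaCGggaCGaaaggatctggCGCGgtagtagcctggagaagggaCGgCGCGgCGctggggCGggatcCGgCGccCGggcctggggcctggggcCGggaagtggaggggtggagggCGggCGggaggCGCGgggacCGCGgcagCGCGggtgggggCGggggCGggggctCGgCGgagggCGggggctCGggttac
Cdh17, not bound: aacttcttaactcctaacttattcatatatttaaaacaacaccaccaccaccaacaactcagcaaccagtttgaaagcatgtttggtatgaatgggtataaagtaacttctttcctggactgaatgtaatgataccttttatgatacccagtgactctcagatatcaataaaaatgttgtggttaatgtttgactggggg
The bound sequences were unlike each other. Those of Pcdh15 and Cdh4 held 25 and 22 CpGs, that of Cdh1 held 12, that of Cdh23 held 3 and that of Cdh15 held 0. The unbound sequences at Dchs1 and at the CpG-rich TSS of Cdh23 held 28 and 27 CpGs, more than any of the bound 5, and Cdh17 held 0. Over the same window at all 22367 protein-coding genes the median was 7 CpGs, and 16 at the bound ones. The letters GGGCGG, searched on both strands, occurred 2 times at Cdh4 and at Pcdh15, 1 time at Cdh1, 6 times at Dchs1 and 3 times at the CpG-rich TSS of Cdh23, and they occur in 38.0% of all such windows.

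The plot of peak positions sets each peak against the TSSs of its gene.

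**Figure D1:**
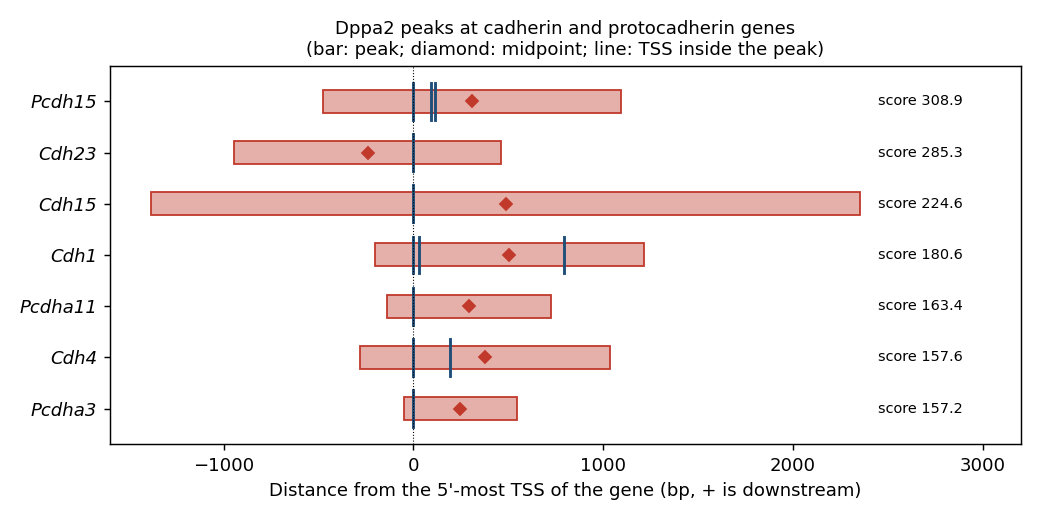
Peaks at the 7 bound protein-coding genes, placed by distance in bp from the first TSS of the gene (x axis, positive values downstream), with genes ordered by score from top to bottom. Bars span the peaks, diamonds mark the midpoints and blue lines mark the TSSs inside the peak. All 7 bars cover the first TSS, and 6 of 7 midpoints lie downstream of it, with Cdh23 as the exception.

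Type I classical cadherins, which hold like cells together through catenins, had 3 of 5 genes bound (60%, 14.7 to 94.7, against 14.2% of all protein-coding genes). At a score of at least 200 only Cdh15 remained, beside 1802 of the 22367 protein-coding genes. Cdh1 and Cdh15 lie on chromosome 8, where 2 of 9 members and 23.7% of 1082 protein-coding genes were bound. Cdh1 lies on the plus strand of chromosome 8 and encodes E-cadherin. Its peak, chr8:109127051-109128464, was 1414 bp wide with a score of 181, rank 2190 of the 3336 peaks. All 3 annotated TSSs of Cdh1 lay inside the peak. The midpoint was 506 bp downstream of the first TSS, in intron 1, and 286 bp upstream of the last, which starts a processed transcript. The Cdh1 peak scored below the median of the list, with 34.4% of peaks lower. It was also the nearest listed peak to the neighbouring Cdh3, the gene of P-cadherin, whose nearest TSS was 92.9 kb away and had no peak of its own.

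Cdh15, also on the plus strand of chromosome 8, encodes M-cadherin of skeletal muscle. Its peak, chr8:125370483-125374222, was 3740 bp wide with a score of 225, rank 1708. Only 25 peaks of the whole list were wider. The peak reached 1383 bp upstream and 2356 bp downstream of the single TSS, and its midpoint fell in the untranslated part of exon 1, 486 bp downstream. Cdh4 on chromosome 2, plus strand, encodes R-cadherin of the retina and other neural tissue. Its peak, chr2:179176857-179178172, was 1316 bp wide with a score of 158, rank 2478. It covered the first 2 of the 5 TSSs of Cdh4, both of protein-coding transcripts, and its midpoint lay in intron 1, 187 bp downstream of the nearer. The third TSS, 1424 bp downstream of the midpoint, and the 2 farther ones start noncoding transcripts and had no peak.

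Cdh2, the gene of N-cadherin, had no peak near its TSS, and the nearest midpoint was 910 kb away. Its TSS was CpG-rich, with an observed to expected CpG ratio of 0.870 over 1000 bp, where 28.3% of protein-coding genes of the same CpG decile were bound. Type II cadherins, which include Cdh5 of the endothelium and Cdh11 of mesenchyme, had 0 of 13 genes bound, which leaves an interval up to 24.7%. Of the remaining Cdh genes, Cdh23 was bound and Cdh13, Cdh16, Cdh17 and Cdh26 were not. The Celsr, Fat and Dachsous genes had 0 of 8 bound, with an interval up to 36.9%. The 14.2% of all protein-coding genes lies within this interval and within that of the type II cadherins.

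The genes of both tip link cadherins carried a peak, and in both a part of the TSSs was covered. Cdh23 lies on the minus strand of chromosome 10. Its peak, chr10:60158777-60160182, was 1406 bp wide with a score of 285, rank 1229, and its midpoint lay 241 bp upstream of the first TSS. From this TSS start 4 transcripts, of which 3 are protein-coding and have 70 to 71 exons. The gene has 10 distinct TSSs, and the other 9 had no peak within 1000 bp. Among these 9, 4 transcripts start 39398 bp from the midpoint, and the CpG-rich TSS shown above lay 9474 bp from it. That TSS starts a single transcript, and its CpG ratio of 0.889 contrasts with 0.203 at the bound TSS.

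Pcdh15 lies on the plus strand of chromosome 10. Its peak, chr10:72561616-72563185, was 1570 bp wide with a score of 309, rank 1067, the highest of the 7. The peak covered the first 3 of 12 TSSs and only the first of them starts a protein-coding transcript, of 8 exons. A TSS 722215 bp downstream of the midpoint starts 9 long protein-coding transcripts of 31 to 37 exons, a TSS 1070778 bp downstream starts another of 31 exons, and a TSS 1191312 bp downstream starts 15 transcripts. No peak was listed at these 3 TSSs. The TSS nearest to the peak midpoint had a CpG ratio of 0.889, and the TSS used by most transcripts had 0.244. With 1 TSS per gene, the one shared by most transcripts, Pcdh15 was therefore not called bound. The Pcdh15 pseudogene, 0.472 kb long, starts 198 bp upstream of the midpoint, and its binding cannot be told apart from that of the gene around it.

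The remaining non-clustered protocadherins, among them Pcdh7, Pcdh10, Pcdh17 and Pcdh19 of the developing nervous system, had no peak within 1000 bp of a TSS. Outside the cluster 6 of 44 entries were bound (13.6%, 5.17 to 27.4), and inside it 2 of 25 (8%, 0.984 to 26.0). These intervals overlap, and the difference was not tested. Both Pcdh15 entries, which share a peak, are among the 6. Over all annotated genes the bound share was 10.2%.

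The clustered protocadherins span chr18:37089939-38001527, 912 kb with 25 annotated genes and 47 distinct TSSs. The annotation merges most alpha transcripts under Pcdha11, with 10 TSSs, and all gamma transcripts under Pcdhgc5, with 10 TSSs, so that binding was counted per TSS here. The list holds 2 peaks in the whole cluster, and both lie in the alpha group. The first, chr18:37089799-37090662, was 864 bp wide with a score of 163, rank 2411, and its midpoint lay 291 bp downstream of the first alpha TSS. The second, chr18:37105749-37106345, was 597 bp wide with a score of 157, rank 2484, and lay 246 bp downstream of the TSS of Pcdha3. Both midpoints fell in the coding part of a variable exon, the exon that gives each protocadherin its own extracellular domain. The peaks were narrow for the list, with 87 peaks narrower than the first and 4 narrower than the second. At a score of at least 200 neither remained.

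**Figure D2:**
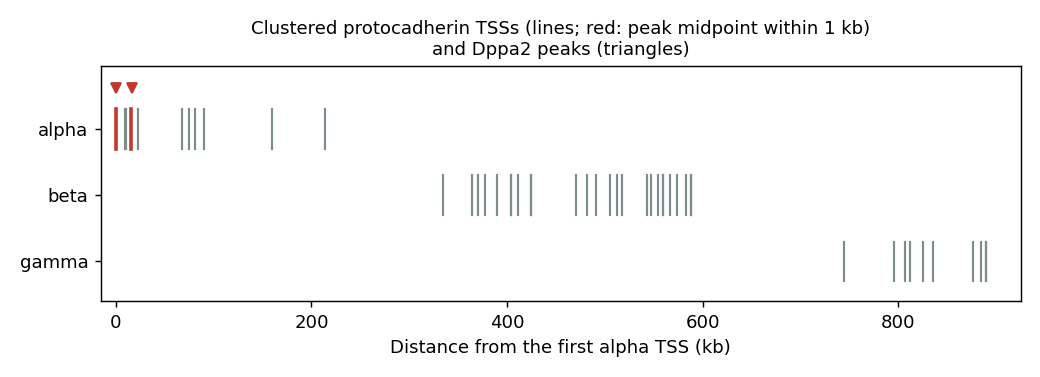
TSSs of the alpha, beta and gamma protocadherins (vertical lines, 1 row per group) by distance in kb from the first alpha TSS (x axis). Red lines are the 2 TSSs with a peak midpoint within 1 kb, grey lines those without, and triangles mark the 2 peaks, which lie 15.8 kb apart at the start of the alpha group.

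Of the 11 alpha TSSs, 9 had no peak, and 2 of these lay between the peaks. None of the 26 beta and 10 gamma TSSs was within 1000 bp of a peak midpoint. The second peak lay 319 kb before the first beta TSS. The nearest listed peaks outside the cluster were 649 kb before and 1152 kb after it. Expressed over genes, 0 of 22 beta genes were bound, with an interval up to 15.4%, which includes the 14.2% of all protein-coding genes. On the whole of chromosome 18, 2 of 27 protein-coding members were bound (7.41%, 0.910 to 24.3), against 16.8% of its 517 protein-coding genes.

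The alpha variable exons resemble each other, which bears on reads that align to more than 1 place. Windows of 700 bp around each bound alpha TSS, from 100 bp upstream to 600 bp downstream, matched those of 7 of the other alpha TSSs. The aligned parts were 442 to 559 bp long. Over them, identity was 82.6% to 88.2% for the first and 84.7% to 89.6% for Pcdha3, and 84.7% between the 2. Of all 36-mers in the first alpha peak, 157 of 829 (18.9%) occurred more than once in mm9, and in the Pcdha3 peak 213 of 562 (37.9%). The peaks at Cdh1, Cdh4, Cdh15, Cdh23 and Pcdh15 held 0 repeated 36-mers. Windows of 1000 bp, wider than these 2 peaks, at all 11 alpha TSSs had a median of 19.6% and a range from 0 to 27.3%. In such windows the first alpha TSS had 16.3% and that of Pcdha3 22.1%, so the bound TSSs were not the only ones with shared sequence. Whether reads of other alpha exons contributed to these 2 peaks was not tested.

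The median score of the 7 peaks was 181, below the median of 228 over all peaks, and 5 of the 7 lay below it. A score of at least 200 was reached by 3 of 7, against 59.3% of all peaks. The median width of 1406 bp was close to that of the list. The plot of score against width shows where the 7 peaks fall.

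**Figure D3:**
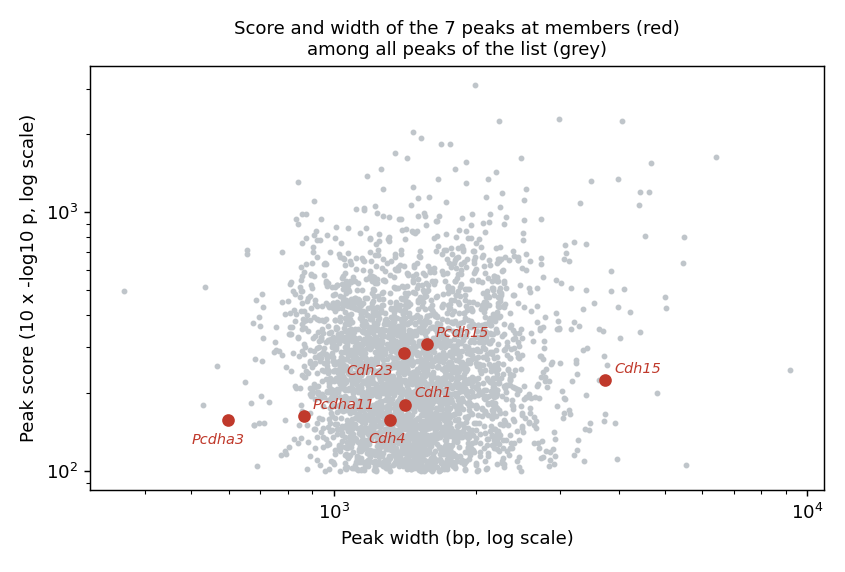
Score (10 times the negative log10 p-value, log scale) against width (bp, log scale) of the 3336 peaks, with the 7 peaks at cadherin and protocadherin genes in red. Pcdh15 and Cdh23 score above the median of 228, Cdh15 is among the widest peaks and Pcdha3 among the narrowest.

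The TSSs of Dppa2-bound genes were CpG-rich over the genome, and the bound members followed this only in part. The CpG ratio is the number of CpGs over that expected from the C and G content of 1000 bp around the TSS. Its median was 0.776 over all bound protein-coding genes and 0.467 over unbound ones. Values over all protein-coding genes were taken at the TSS shared by most transcripts, which need not be the one with the peak. Among members the median was 0.717 at the 7 bound TSSs, with a range from 0.203 to 0.979, and 0.436 at the 60 unbound genes. At the TSS shared by most transcripts the bound members also had 0.717. Of the unbound genes, 21 are beta protocadherin genes, with a median of 0.412. Outside the cluster the medians were closer, 0.640 at the 5 bound TSSs and 0.566 at the 38 unbound genes. Cdh4, Pcdh15, Pcdha11 and Pcdha3 had ratios of 0.979, 0.889, 0.722 and 0.717, and Cdh1 had 0.640. At the TSS shared by most transcripts Pcdh15 had 0.244 and Cdh4 0.903. The Cdh1 value is that of the TSS of a processed transcript, and the TSSs of its protein-coding transcripts had 0.718 and 0.734. Cdh15 and Cdh23, with 0.261 and 0.203, lay below the median of the unbound genes. The alpha TSSs combined a high CpG ratio with a low GC content, 47.0% at the first alpha TSS and 44.5% at Pcdha3, against a median of 63.2% over all bound protein-coding genes.

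**Figure D4:**
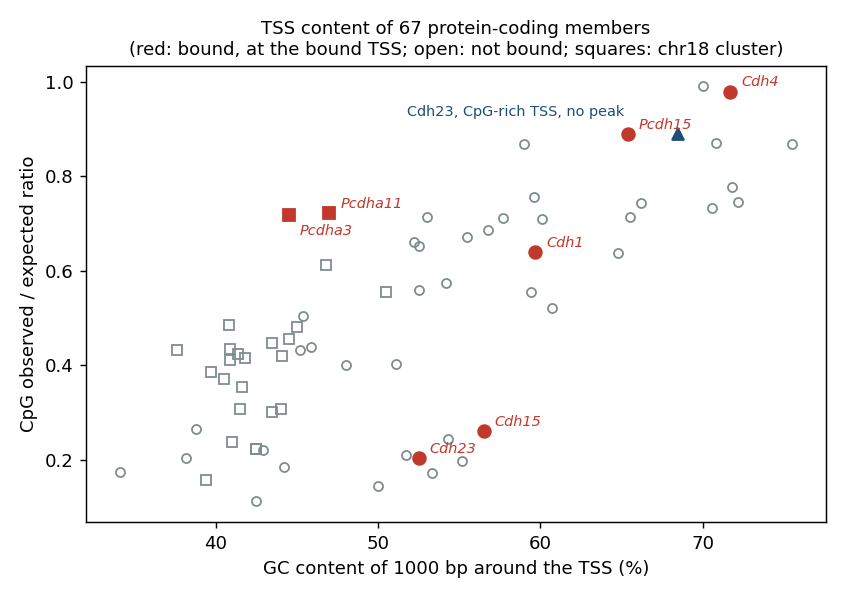
CpG observed to expected ratio (y axis) against GC content in percent (x axis) over 1000 bp around 1 TSS for each of the 67 protein-coding members. Red points are the 7 bound genes at the TSS nearest to the peak. Open points are the 60 unbound genes at the TSS shared by most transcripts. Squares are the chromosome 18 cluster, and the triangle is the CpG-rich TSS of Cdh23 without a peak. Cdh15 and Cdh23 lie among CpG-poor unbound genes, and CpG-rich unbound genes lie beside Cdh4 and Pcdh15.

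Within the cluster, the 9 alpha TSSs without a peak had a median CpG ratio of 0.664 and a range from 0.607 to 0.796, which includes both bound alpha TSSs. The beta TSSs were poorer in CpG, with a median of 0.390, and the gamma TSSs had 0.635. Outside it, several CpG-rich TSSs had no peak. The highest ratios among them were those of Dchs1, the gene of the ligand of Fat4, at 0.990, Cdh2 at 0.870, Celsr1 at 0.868 and Pcdh7 at 0.867, followed by Celsr2 at 0.777.

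Over all protein-coding genes the bound share rose from 0.715% in the lowest decile of the CpG ratio to 34.8% in the highest. For this comparison every gene, bound members included, was represented by the TSS shared by most of its transcripts. Most members fell in the lower deciles, with 40 of 67 in the lower 5, and only 2 in the highest. Of the 21 protein-coding beta protocadherin genes, all except Pcdhb1 were in the lower 5, which accounts for much of this. Adding up the bound share of the decile of each member gave 8.29 genes, beside the 7 that were bound. Cdh15, Cdh23 and Pcdh15 were the 3 bound among 13 members in the third decile, where 4.38% of all protein-coding genes were bound. The Pcdh15 TSS with the peak is, however, CpG-rich. The 4 members in decile 8 and the 3 in decile 9, which are Cdh2, Celsr1 and Pcdh7, were not bound. Of all protein-coding genes, 20.3% in decile 8 and 28.3% in decile 9 were bound.

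**Figure D5:**
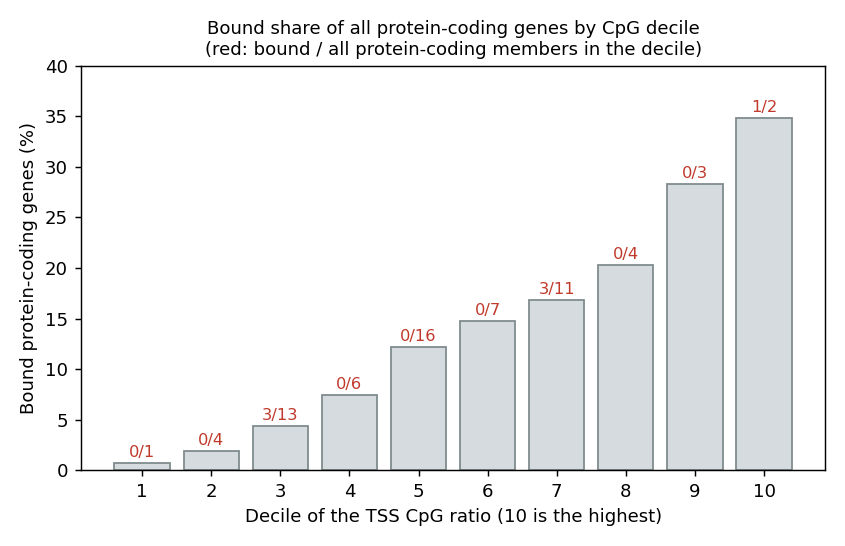
Bars give the percentage of all protein-coding genes that were bound in each decile of the CpG ratio at the TSS (x axis, 10 the highest), and red labels give bound over all protein-coding members in that decile. The bars rise from 0.715% to 34.8%, and bound members stand in deciles 3, 7 and 10.

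The 7 bound members ranged from 2.88 kb and 1 TSS at Pcdha3 to 1550 kb and 12 TSSs at Pcdh15. Their median length was 257 kb, that of the Pcdha11 entry, in which the annotation merges 10 alpha TSSs. That of the 60 unbound ones was 30.7 kb, and 21 of the unbound ones are beta protocadherin genes. Over all protein-coding genes the medians were 29.0 kb for bound and 14.1 kb for unbound. A gene with more TSSs has more windows in which a midpoint can fall. Of the 5 members with 10 or more TSSs, 3 were bound, Pcdha11, Pcdh15 and Cdh23, against 19.3% of all protein-coding genes in that class. Of the 33 members with a single TSS, 2 were bound, Cdh15 and Pcdha3, against 11.7%. Adding up the bound share of the TSS class of each member gave 9.31 genes, beside the 7 that were bound.

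Short sequences were counted in 300 bp around each peak midpoint on both strands. CpG counts were 46 for Cdh4, 29 for Pcdh15, 24 for Cdh1, 19 for each alpha peak, 14 for Cdh15 and 6 for Cdh23, beside a median of 30 over all peaks. The Cdh23 peak was among the poorest in CpG, with 3.39% of peaks lower. GGGCGG occurred at Cdh4, Cdh15 and both alpha peaks, 4 of 7, and at 61.7% of all peaks. CACGTG occurred at Cdh15 and the first alpha peak, and at 5.67% of all peaks. The shorter CGCT was in 6 of 7 and in 92.2% of all peaks, with Cdh23 as the exception. These counts describe letters and do not identify a bound factor.

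Genes that work with cadherins were taken from lists chosen with earlier results of these data known. Their bound shares are set beside the 14.2% of all protein-coding genes. The CpG content of their TSSs was not compared, and in the highest CpG decile 34.8% of all protein-coding genes were bound. Planar polarity partners of the Celsr, Fat and Dachsous cadherins had 8 of 17 genes bound (47.1%, 23.0 to 72.2). They were Fzd3 with a peak score of 321 and Fzd6 with 217, receptors of the pathway, the Dishevelled genes Dvl1 with 368 and Dvl3 with 181, Fjx1 with 218, Prickle1 with 153, Scrib with 152 and Vangl1 with 136. The Celsr, Fat and Dachsous genes themselves had no peak midpoint within 1000 bp of a TSS. At a score of at least 200 the list kept 4 genes, beside 1802 of the 22367 protein-coding genes.

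Catenins and junction partners had 4 of 19 genes bound (21.1%, 6.05 to 45.6). They were Ctnna1, alpha-catenin, with a score of 234, Mllt4, the adaptor afadin, with 275, and the plakophilin genes Pkp3 with 411 and Pkp4 with 527. Of the cadherin superfamily outside the symbol rule 4 of 19 genes were also bound. The highest score was 602 at Clstn1, a calsyntenin, followed by Cdhr4 with 253, the desmosomal cadherin gene Dsg2 with 228 and Ret, a receptor kinase with cadherin-like repeats, with 196. Of the tip link and Usher partners 1 of 12 was bound (8.33%, 0.211 to 38.5), Whrn, a scaffold of the hair bundle, with 274. At a score of at least 200 the catenin list kept 4 genes, the superfamily list 3 and the tip link list 1. Over all 22367 protein-coding genes, 1802 were bound at that score.

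Protocadherin choice and signalling partners had 5 of 12 genes bound (41.7%, 15.2 to 72.3). Nckap1 with 378, Cyfip2 with 284 and Wasf1 with 142 encode parts of the WAVE complex of actin assembly, and Ptk2 with 161 is a focal adhesion kinase gene. Setdb1, a histone H3K9 methyltransferase gene, had a score of 141. At a score of at least 200 the list kept 2 genes, Nckap1 and Cyfip2, beside 1802 of the 22367 protein-coding genes. Axon guidance families, such as semaphorins, plexins and ephrins with their receptors, served as another set of neuronal cell surface genes and had 20 of 76 genes bound (26.3%, 16.9 to 37.7). The name rule for that set includes Unc50, which is not a guidance gene and was among those bound. The share of cadherin and protocadherin genes was 11.6%, or 10.4% of the protein-coding ones (4.30 to 20.3). The intervals of the 2 sets overlap, which does not show that the shares are alike, and the difference was not tested.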

How the data were processed

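ChIP-seq peaks of V5-Dppa2 in CGR8 cells were analysed, 1 library of 6. The authors filtered out low-complexity reads and mapped to mm9 with Bowtie 0.12.7 (seed of 36 bases, up to 2 mismatches, best alignment kept for reads with several places). After duplicate removal they ran MACS 1.4.2 with 75 bp as shift size, and p of at most 1e-10 and 100 reads as minimum. The deposited list was taken to hold peaks at TSSs only. Picard 1.81 is also named in the submitters' processing notes. The score column deposited by the authors equals −log10 of the p-value from MACS, multiplied by 10. The list gives no summits and no depth, so midpoints were used.

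TSSs came from all transcripts of GENCODE M1 on mm9, whose sequence was used for base composition, motifs and 36-mers occurring more than once on both strands. For 34 RefSeq symbols of the rule, 33 of them on chromosome 18, GENCODE M1 has no gene of that name. The other is Dchs2 on chromosome 3, which was not assessed. Alpha TSS windows were compared with blastn (BLAST 2.17.0). Shares carry exact Clopper-Pearson intervals at 95%. With 1 library no test was made. The members and lists were chosen with earlier results of these data known. Every bound member, Cdh1, Cdh2, Cdh23, Pcdh15 and the clustered genes were to be named, with unbound members within 5 kb of a midpoint (there were 0), others by family and partner genes only when bound. Unbound genes named as examples of a family, or for their CpG ratio, were chosen after their values were seen. The distance and counting steps were tested on simulated data. Alternatives were a score of at least 200, windows of 500 and 5000 bp, any base of the peak, protein-coding genes, 1 TSS per gene, merged peaks and other promoter widths. Python 3.11.15, numpy 2.4.6, scipy 1.17.1, numba 0.67.0 and matplotlib 3.10.9 were used.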

Additional observations from a re-analysis of the deposited data

How the results depend on the processing

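The number of bound members was 8 with windows of 500 and 5000 bp and with any base of the peak, and 7 with protein-coding genes only, which leaves out the Pcdh15 pseudogene, and with 1 TSS per gene, which loses Pcdh15. With the score limit raised to 200 it was 4, without Cdh1, Cdh4, Pcdha11 and Pcdha3, the cluster held 0 peaks, and the planar polarity and the choice and signalling lists had 4 and 2 bound genes. The bound share of all genes was 5.97% at that score, 8.83% with 500 bp, 11.7% with 5000 bp, 10.6% with any base of the peak, 14.2% for protein-coding genes and 9.83% with 1 TSS per gene. Fewer peaks, narrower or wider windows and fewer genes or TSSs make up these settings. Merging peaks left 2 in the cluster. At the TSS shared by most transcripts, the median CpG ratio of bound members was 0.717, 0.635 and 0.566 over 1000, 500 and 2000 bp, and that of unbound ones 0.436, 0.486 and 0.404. No paired analysis was possible because the peak list comes from 1 library and no result comes from a test. The unknown depth limits what an absent peak means.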

Other observations

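Peaks inside unbound members were looked up after the values had been seen. Within Fat1, an atypical cadherin gene on chromosome 8, a peak at chr8:46108166-46109938 had a score of 275, rank 1300, and lay 73.5 kb from the first Fat1 TSS. The nearest TSS was that of the lincRNA gene Gm2366 on the minus strand, 1313 bp from the midpoint. At the end of Cdh24, a type II cadherin gene on chromosome 14, a peak at chr14:55250424-55251672 had a score of 826, rank 88, higher than any of the 7 peaks at members. Its midpoint lay 118 bp from the TSS of the protein-coding gene CT009512.1 and 9.15 kb from that of Cdh24.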
